A study of Mus musculus with 14 samples.

Results

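Serotonergic neurons of the brainstem raphe nuclei were followed through 4 genes, Tph2, Slc6a4, Fev and Htr1a, which were found by gene symbol among the 55421 mouse genes of the deposited count table. All 4 were measured in all 14 RNA sequencing libraries. The study asked what mutant human tau in the locus coeruleus, the noradrenergic nucleus that lies close to the raphe, does to the RNA translated by its neurons. Every animal had a C57Bl/6 background and the genotype TH-Cre;Slc6a2-eGFP/Rpl10a, in which Cre is driven by the tyrosine hydroxylase promoter and the tagged ribosomal protein Rpl10a by the noradrenaline transporter gene Slc6a2. At 2 to 3 months of age the locus coeruleus was infused with P364S mutant human tau (4 animals, lettered B, C, L and M) or with the fluorescent protein EYFP as control (3 animals, H, I and K). The labels give B, L and I as male and C, M, H and K as female, and the time from infusion to collection is not given in the sources used here. Brainstem homogenate of each animal gave a total RNA library (pre-IP) and a library of RNA pulled down with the tagged ribosomes (IP), so that the groups were tau pre-IP (n = 4), EYFP pre-IP (n = 3), tau IP (n = 4) and EYFP IP (n = 3). The tag is placed in noradrenergic cells, so the serotonergic genes are not those of the cells that the pull-down was built to collect.

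Serotonin is made from tryptophan by tryptophan hydroxylase and aromatic amino acid decarboxylase, is loaded into vesicles by the vesicular monoamine transporter, and is taken back after release by the serotonin transporter. In the brain the first and rate-limiting step is carried out by the product of Tph2, and Slc6a4 encodes the transporter that is the target of many antidepressants. Fev (also called Pet-1) is a transcription factor of the ETS family that switches on and maintains these genes in serotonergic neurons. Htr1a encodes the 5-HT1A receptor, an inhibitory autoreceptor on serotonergic neurons that is also found on many neurons that do not make serotonin. Tph2, Slc6a4 and Fev therefore mark the cell type, whereas Htr1a does not mark it alone.

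The bases upstream of the 4 genes are shown because Fev is a DNA-binding regulator of the others and because ETS-family factors bind sites built around the letters GGAA. All 4 genes matched RefSeq by symbol, and the sequences are those of RefSeq on GRCm38.p6, in the direction of transcription. Up to 250 bases before the RefSeq start are given, and bases inside the gene's span in the deposited gene table were left off. Capitals mark GGAA, or TTCC where it lies on the opposite strand.
Tph2, chr10:115185023-115185272, minus strand: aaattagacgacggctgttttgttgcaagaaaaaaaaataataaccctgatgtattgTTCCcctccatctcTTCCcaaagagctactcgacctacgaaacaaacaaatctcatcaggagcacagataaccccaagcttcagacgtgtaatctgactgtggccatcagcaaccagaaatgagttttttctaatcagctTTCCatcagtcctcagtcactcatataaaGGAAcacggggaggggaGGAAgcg
Slc6a4, chr11:76998347-76998596, plus strand: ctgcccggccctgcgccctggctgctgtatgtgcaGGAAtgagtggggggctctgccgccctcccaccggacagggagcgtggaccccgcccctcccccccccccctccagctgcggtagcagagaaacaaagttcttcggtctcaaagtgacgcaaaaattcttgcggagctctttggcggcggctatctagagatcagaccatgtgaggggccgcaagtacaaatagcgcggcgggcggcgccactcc
Fev, chr1:74885420-74885658, minus strand: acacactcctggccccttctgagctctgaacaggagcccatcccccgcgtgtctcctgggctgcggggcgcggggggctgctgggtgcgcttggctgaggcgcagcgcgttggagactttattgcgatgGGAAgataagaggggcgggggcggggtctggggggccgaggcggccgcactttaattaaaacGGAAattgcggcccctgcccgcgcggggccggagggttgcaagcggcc
Htr1a, chr13:105443443-105443638, plus strand: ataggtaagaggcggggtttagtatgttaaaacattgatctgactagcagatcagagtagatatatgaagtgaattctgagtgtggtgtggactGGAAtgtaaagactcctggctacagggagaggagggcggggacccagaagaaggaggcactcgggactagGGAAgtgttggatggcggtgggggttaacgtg

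In the full 250 bases upstream of each RefSeq start, the letters GGAA on either strand occurred 5 times for Tph2, 1 time for Slc6a4, 2 times for Fev and 3 times for Htr1a, of which 2 lie in the bases printed for Htr1a. Such a short motif is common: 93.4% of 32851 promoters of the same length held it, with a median of 3 matches. The longer form CCGGAA, which contains GGAA, was found in none of the 4 windows and in 12% of all promoters. GATA, the core letters of GATA factors, had 1 match on either strand in each of the 4 windows and was present in 53.6% of all promoters. TATAAA was found upstream of Tph2 and of no other member, against 12.4% of all promoters. These matches describe letters in a window and not bound sites.

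Each gene is given with its span in the deposited gene table (GRCm38). Tph2 (ENSMUSG00000006764.8) lies on the minus strand of chromosome 10 from 115078641 to 115185022, with a summed exon length of 2879 bases. Slc6a4 (ENSMUSG00000020838.12) lies on the plus strand of chromosome 11 from 76998603 to 77032340, with 4531 bases. It overlaps the antisense gene Gm12343, which had 0 counts in all 14 libraries. Fev (ENSMUSG00000055197.4) lies on the minus strand of chromosome 1 from 74881509 to 74885419, with 1617 bases. Htr1a (ENSMUSG00000021721.5) lies on the plus strand of chromosome 13 from 105443639 to 105448122, with 4484 bases.

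Total counts per library ran from 41843489 to 65664551, so that 3 counts, the floor used here for detection, correspond to 0.0457 to 0.0717 CPM (library counts scaled to a total of 1000000), for counting error only. Several libraries stand apart or go against their labels. Both EYFP libraries of animal K held tau construct counts, 408 in pre-IP and 398 in IP, where those of H and I held from 2 to 18 and the tau libraries from 3527 to 47177. Animal M, labelled female, had 674 counts of 4 Y-linked genes in pre-IP and 1153 in IP. Its counts of Xist, the female-specific RNA, were 0 in pre-IP and 21 in IP, so its 2 fractions differ in this. Libraries of the other animals labelled female had 16 to 120 Xist counts, and those of animals labelled male had 0. The EYFP IP library of animal I had an RNA integrity number of 4.2. RNA concentrations were 0.1 (B), 0.8 (C), 0.2 (L) and 0.5 (M) ng per microlitre for the tau IP libraries. For the EYFP IP libraries they were 2.8 (H), 1.6 (I) and 0.7 (K) ng per microlitre. The numbers given to the libraries fall into a range up to 11 (animals B, C, H and I) and a range from 17 (K, L and M), and both treatments occur in each. Among noradrenergic markers of the tagged cells, 7 of 7 were higher in IP by edgeR, beside 16.3% of all genes. Their summed level ran from 505.5 to 4459 CPM in tau IP and from 217 to 254.2 CPM in EYFP IP libraries. In the pre-IP libraries it was 100.8 to 138.4 CPM.

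In the homogenate, Tph2 was the most abundant of the serotonergic genes for its length. Per kilobase of exon, its pre-IP level was 11.03 ± 5.24 CPM per kb (SD, n = 7), ahead of Htr1a with 5.53 ± 1.22, Slc6a4 with 4.50 ± 2.28 and Fev with 1.81 ± 0.987. Tph2 was the highest of the 4 per length in 7 of 7 pre-IP libraries, and Fev was the lowest in 7 of 7. Htr1a and Slc6a4 were neighbours whose levels differed by less than their spread. In the IP the levels per length were 13.5 ± 8.37 for Tph2, 3.27 ± 2.05 for Slc6a4, 2.39 ± 1.06 for Htr1a and 1.87 ± 1.36 for Fev (CPM per kb, SD, n = 7). Tph2 again led in 7 of 7 libraries, and the other 3 differed from their neighbours by less than their spread.

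The pre-IP levels of Tph2 were 26.1 CPM in B, 28.5 in C, 22.8 in L and 40.8 in M among the tau animals, and 20.2 in H, 21.7 in I and 62.2 in K among the EYFP animals. Animal K was the highest of all 7 and M the next, and the treatment groups overlapped. In the IP, Tph2 had 14.5 CPM in B, 24.98 in C, 31.2 in L and 41.8 in M, against 36.3 in H, 33.6 in I and 89.8 in K. K was again the highest, and B was the lowest.

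Slc6a4 had 14.3 CPM in B, 15.6 in C, 19.9 in L and 28.7 in M in tau pre-IP libraries, and 13.3 in H, 11.2 in I and 39.8 in K in EYFP pre-IP libraries. The transporter gene was thus also highest in K and next highest in M. Its IP levels were 3.27 CPM in B, 6.92 in C, 12.9 in L and 21.6 in M, and 19.6 in H, 9.77 in I and 29.8 in K. The lowest IP library, that of B, was below every pre-IP library.

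Fev, the regulator, was scarce, with 34 to 350 counts per library. Its pre-IP levels were 1.59 CPM in B, 2.42 in C, 3.48 in L and 2.29 in M, and 1.84 in H, 2.57 in I and 6.28 in K. In the IP it had 0.605 CPM in B, 0.919 in C, 3.04 in L and 6.70 in M, and 1.74 in H, 3.27 in I and 4.86 in K. Here the pre-IP high was in K alone, and the IP high was in M.

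The receptor gene Htr1a varied least between homogenates. It had 17.6 CPM in B, 20.8 in C, 24.04 in L and 33.9 in M in tau pre-IP libraries, and 27.6 in H, 21.7 in I and 28.1 in K in EYFP pre-IP libraries. Its IP levels were 3.45 CPM in B, 7.26 in C, 13.8 in L and 10.6 in M, and 10.02 in H, 11.5 in I and 18.4 in K. Only the IP library of K, at 18.4 CPM, was above the lowest pre-IP library, that of B, so the fractions overlapped by these libraries alone.

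**Figure D1:**
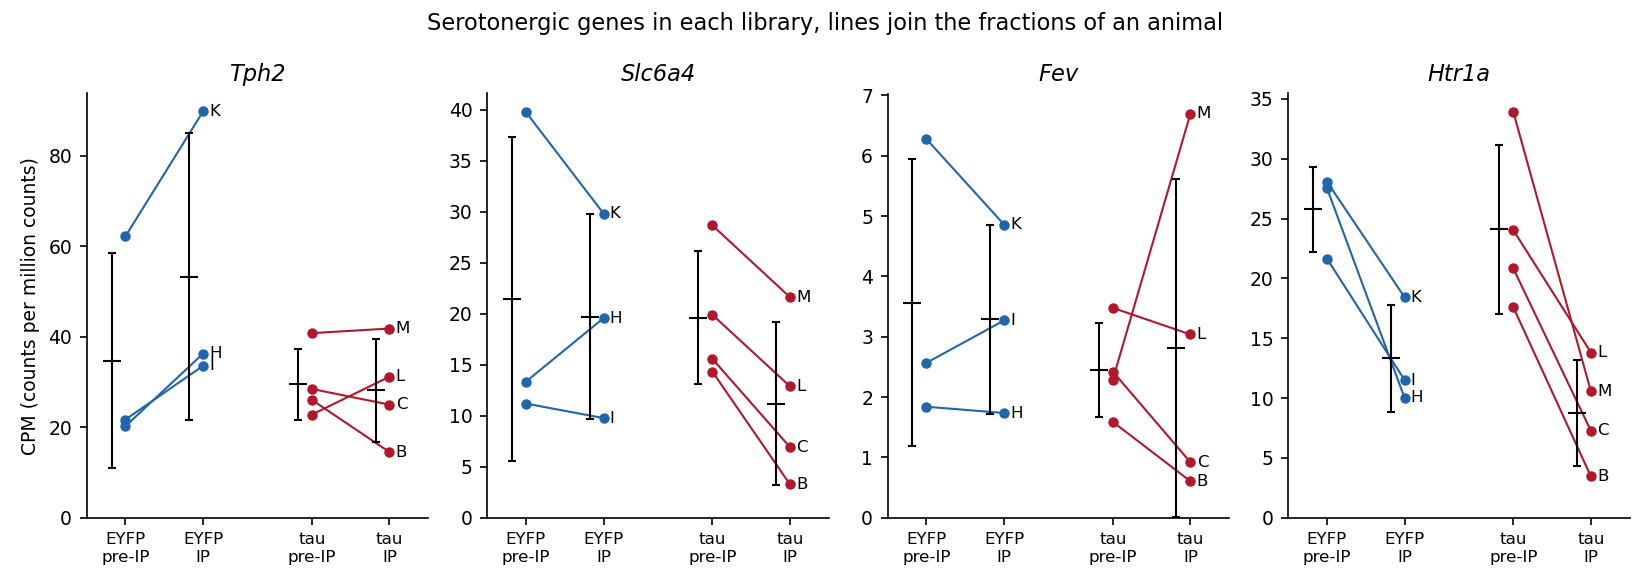
Level of Tph2, Slc6a4, Fev and Htr1a in each of the 14 libraries, in CPM on a linear axis that starts at 0. Points are libraries, lines join the pre-IP and IP library of an animal (letters), and black marks with bars are group means ± SD (n = 3 for EYFP, n = 4 for tau). Htr1a fell from pre-IP to IP along 7 of 7 lines, and animal K was the highest pre-IP library for Tph2, Slc6a4 and Fev.

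Animal K stood out among the homogenates. The summed level of the cell type markers Tph2, Slc6a4 and Fev was 108.2 CPM in its pre-IP library and 71.7 CPM in that of M, against 35.4 to 46.5 CPM in the other 5 homogenates. In bulk tissue, more serotonergic cells in a piece of brainstem and more RNA per cell cannot be told apart. The same 2 animals had the highest summed levels of cholinergic, astrocyte and oligodendrocyte markers among the homogenates. Cholinergic markers summed to 86.0 CPM in K and 75.8 CPM in M, against 45.1 to 55.3 CPM in the other 5, and oligodendrocyte markers to 12000 CPM in K and 11720 CPM in M, against 8886 to 11030 CPM. Cerebellar markers were lowest in these animals, with 104.6 CPM in K and 80.8 CPM in M, against 157.2 to 261.8 CPM in the other 5. Noradrenergic markers summed to 138.4 CPM in K and 100.8 CPM in M, the highest and the lowest of the 7. That sum was largely Th, with 51.3 to 81.0 CPM in tau and 53.3 to 64.6 CPM in EYFP homogenates. Dbh alone had r = 0.890 with the mean log2 level of the 3 serotonergic markers. The part of such differences between homogenates in the serotonergic levels was not tested.

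Across the 7 pre-IP libraries, log2 levels of Tph2 and Slc6a4 varied together. Pearson's r was 0.927 (exact permutation p 0.00635 over 5040 pairings, 0.0381 after adjustment over the 6 pairs of members), and Spearman's rho was 0.857 (exact permutation p 0.0238, adjusted 0.143). Without animals K and M, the 2 farthest from the median of Tph2, r was 0.373, so the relation rests on those animals. The other 5 pairs had r from 0.433 (Fev and Htr1a) to 0.753 (Slc6a4 and Fev), with exact permutation p-values adjusted over the 6 pairs from 0.117 to 0.337. By library-number range, Slc6a4 had 11.2 to 15.6 CPM in the 4 homogenates up to number 11 and 19.9 to 39.8 CPM in the 3 from number 17. Tph2 had 20.2 to 28.5 CPM and 22.8 to 62.2 CPM, which overlap. Htr1a had 17.6 to 27.6 CPM and 24.04 to 33.9 CPM, and Fev had 1.59 to 2.57 CPM and 2.29 to 6.28 CPM. Those of Htr1a and Fev overlap too. The share of all genes that do not overlap between the library-number ranges was not determined, so the gap of Slc6a4 is a description. Ranges of 4 and 3 libraries are too few for a correlation within them.

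The genes most like the 3 serotonergic markers across the homogenates were Sun2 (r = 0.985 with the mean log2 level of Tph2, Slc6a4 and Fev over the 7 pre-IP libraries), Abtb3 (0.982), Csad (0.982), Pcdhgb2 (0.976) and Map6 (0.970), out of 14984 genes compared. Their range over the homogenates was narrower than that of Tph2: Sun2 ran from 2.81 to 5.33 CPM and Map6 from 137 to 183 CPM. With 7 libraries and this many genes, these values are a description. Among genes of other neurons, named after their values were seen, the cholinergic Chat had r = 0.933, the cholinergic Slc18a3 0.907, the glycinergic Slc6a5 0.898 and the noradrenergic Dbh 0.890, whereas Htr1a had 0.622.

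The pull-down was then compared with the homogenate in a fit of the 14 libraries that allowed for treatment. Htr1a was the member that changed: its log2 fold change in IP against pre-IP was -1.21 (SE 0.244, edgeR adjusted p 0.00158). Of the 4 members 1 passed the threshold of 0.05, while 31.0% of the 18792 genes tested did, 16.3% as higher and 14.7% as lower. DESeq2 called the same member and 35.3% of genes, and an unadjusted p under 0.05 was reached by the same member and 41.6% of genes. With the animal as a block the member passed again (-1.28, edgeR adjusted p 0.00028) beside 32.6% of genes. Lower log2 fold changes than that of Htr1a were seen in 1.2% of the genes tested. For Tph2 the value was 0.25 (SE 0.310, edgeR adjusted p 0.587) and for Fev it was 0.08 (SE 0.446, edgeR adjusted p 0.916). Slc6a4 had -0.50 (SE 0.385, edgeR adjusted p 0.347), and -0.57 with the animal as a block (adjusted p 0.076). The median of the members was -0.21, beside -0.004 over all genes tested, and none of the 4 had fractions without overlap, against 9.46% of the genes.

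The fall of Htr1a was seen in each animal. Its log2 IP over pre-IP was -2.08 in B, -1.45 in C, -0.76 in L and -1.71 in M among the tau animals, and -1.40 in H, -0.95 in I and -0.67 in K among the EYFP animals. The mean was -1.29 ± 0.521 (SD, n = 7), with a two-sided exact sign-flip p of 0.0156, the smallest that 7 animals can give. An IP level below pre-IP in every animal was found in 3096 genes, 16.5% of those tested. Htr1a also passed in the tau animals alone (-1.44, edgeR adjusted p 0.0203, beside 20.7% of genes) and in the EYFP animals alone (-0.95 in that fit, adjusted p 0.0423, beside 6.38% of genes). It passed with K and M both left out (-1.22, adjusted p 0.00821), and in each fit that left out 1 animal (adjusted p 0.000618 to 0.008).

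Tph2, in contrast to the receptor, was taken up in different directions. Its log2 IP over pre-IP was -0.59 in B, -0.12 in C, 0.49 in L and 0.00 in M, and 0.90 in H, 0.59 in I and 0.47 in K, a mean of 0.25 ± 0.507 (SD, n = 7, two-sided exact sign-flip p 0.281). The 3 EYFP animals were above 0, and 2 of the 4 tau animals were below. Slc6a4 was lower in the IP in 6 of 7 animals, from -1.86 in B to 0.61 in H, with a mean of -0.58 ± 0.763 (SD, n = 7, two-sided exact sign-flip p 0.0938). Fev ran from -1.29 in C to 1.50 in M, with a mean of -0.17 ± 0.934 (SD, n = 7, two-sided exact sign-flip p 0.672). Its 2 lowest values, those of B and C, and its highest, that of M, were all in tau animals.

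**Figure D2:**
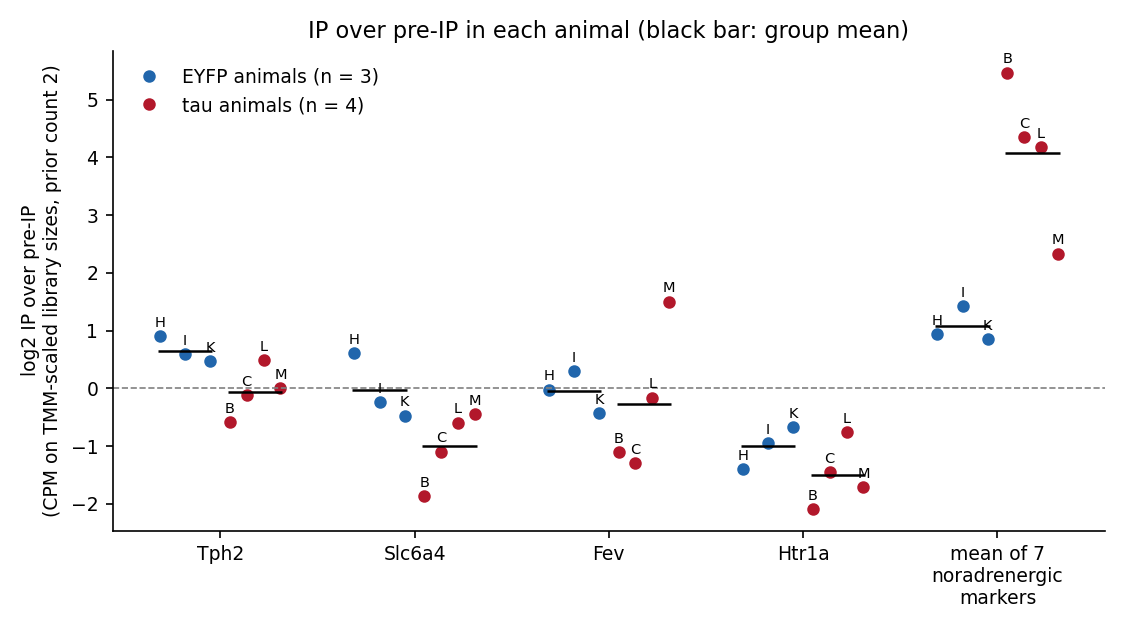
Log2 IP over pre-IP of each member and of the mean of 7 noradrenergic markers, for each animal (letters), on TMM-scaled library sizes with a prior count of 2. Black bars are the means of the 3 EYFP and the 4 tau animals and the dashed line is 0. All 7 animals are below 0 for Htr1a and above 0 for the noradrenergic markers, while Tph2 and Fev lie on both sides.

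The 2 genes that define serotonin synthesis and reuptake were not retained alike. In each of the 7 animals the log2 IP over pre-IP of Tph2 exceeded that of Slc6a4, by 0.29 to 1.28 and by 0.83 ± 0.351 on average (SD, n = 7). The two-sided exact sign-flip p was 0.0156, the smallest possible, and 0.0234 after adjustment over the 6 pairs of members. These comparisons between members were added after their values had been seen. Tph2 exceeded Htr1a by 1.54 ± 0.386, Fev exceeded Htr1a by 1.12 ± 1.038 and Slc6a4 exceeded Htr1a by 0.70 ± 0.699, each in 7 of 7 animals and each with an adjusted exact p of 0.0234. Fev differed from Tph2 and from Slc6a4 with an exact sign-flip p of 0.266 for both. Without animal M, Tph2 exceeded Fev by 0.74 (exact sign-flip p 0.0312, not adjusted), against 0.42 with it. As a ratio of levels per length, Slc6a4 over Tph2 was 0.328 to 0.555 in the pre-IP libraries and 0.143 to 0.343 in the IP libraries. In tau animal B it was 0.350 in pre-IP and 0.143 in IP, and in EYFP animal H it was 0.419 and 0.343.

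The same comparison was made for the other genes of the serotonin pathway. Of 12 genes of synthesis, packaging and breakdown, 8 (66.7%) rose in the IP and 0 fell, beside 16.3% of all genes that rose. The largest changes were those of Slc18a2, the vesicular monoamine transporter (2.35, SE 0.514, edgeR adjusted p 0.00275), Maoa, which breaks down monoamines (1.93, SE 0.464, adjusted p 0.00508), and Gch1, the first enzyme of the pathway to the cofactor tetrahydrobiopterin (1.66, SE 0.465, adjusted p 0.0128). They were followed by Ddc, the decarboxylase (1.23, SE 0.307, edgeR adjusted p 0.00644), and Pts, the second enzyme of the cofactor pathway (0.55, SE 0.179, adjusted p 0.0276). Spr, Qdpr and Maob, outside the naming rule and named after their values were seen, rose by 0.35 to 0.44. Noradrenergic neurons use genes of this list as well, Slc18a2, Maoa, Gch1, Ddc and Pts among them, so the list is not particular to serotonin. In tau against EYFP IP, the log2 fold change of Maob was -0.12 (SE 0.211, edgeR adjusted p 0.842). That of Maoa was 2.45 (SE 0.55, edgeR adjusted p 0.318), and the difference between these genes was not tested. The marker of serotonin synthesis itself, Tph2, was not among those that passed. The other tryptophan hydroxylase, Tph1, was near the floor, with group means of 0.202 to 0.372 CPM, and its log2 change in the IP was 0.33 (SE 0.625, with an edgeR adjusted p of 0.728).

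Among 9 transcription factors that specify serotonergic neurons or their region, 1 rose and 2 fell in the IP, a share of 33.3% that is close to the 31.0% of all genes that passed. Gata2 changed by -0.85 (SE 0.232, edgeR adjusted p 0.011) and Nkx2-2 by -0.55 (SE 0.15, adjusted p 0.0105), whereas En2, a midbrain and hindbrain regional factor, changed by 0.52 (SE 0.158, adjusted p 0.0201). Gata3 and Lmx1b, which act beside Fev in mature serotonergic neurons, had -0.44 (SE 0.313, adjusted p 0.316) and 0.17 (SE 0.237, adjusted p 0.619). Of 13 other serotonin receptors 11 were tested and 0 passed, with log2 fold changes from -0.54 to 0.26. At an unadjusted p under 0.05 and with DESeq2 the count was 0 as well. Htr1a, at -1.21, was thus below the range of all the other receptors tested. None of 3 low-affinity serotonin uptake genes and none of 5 raphe co-transmitter and peptide genes passed either, with edgeR, with DESeq2 or at an unadjusted p under 0.05. Over the 5 lists, 9 of 40 tested genes rose and 2 fell, with a median log2 fold change of 0.07. The share that passed, 27.5%, was near the 31.0% of all genes.

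**Figure D3:**
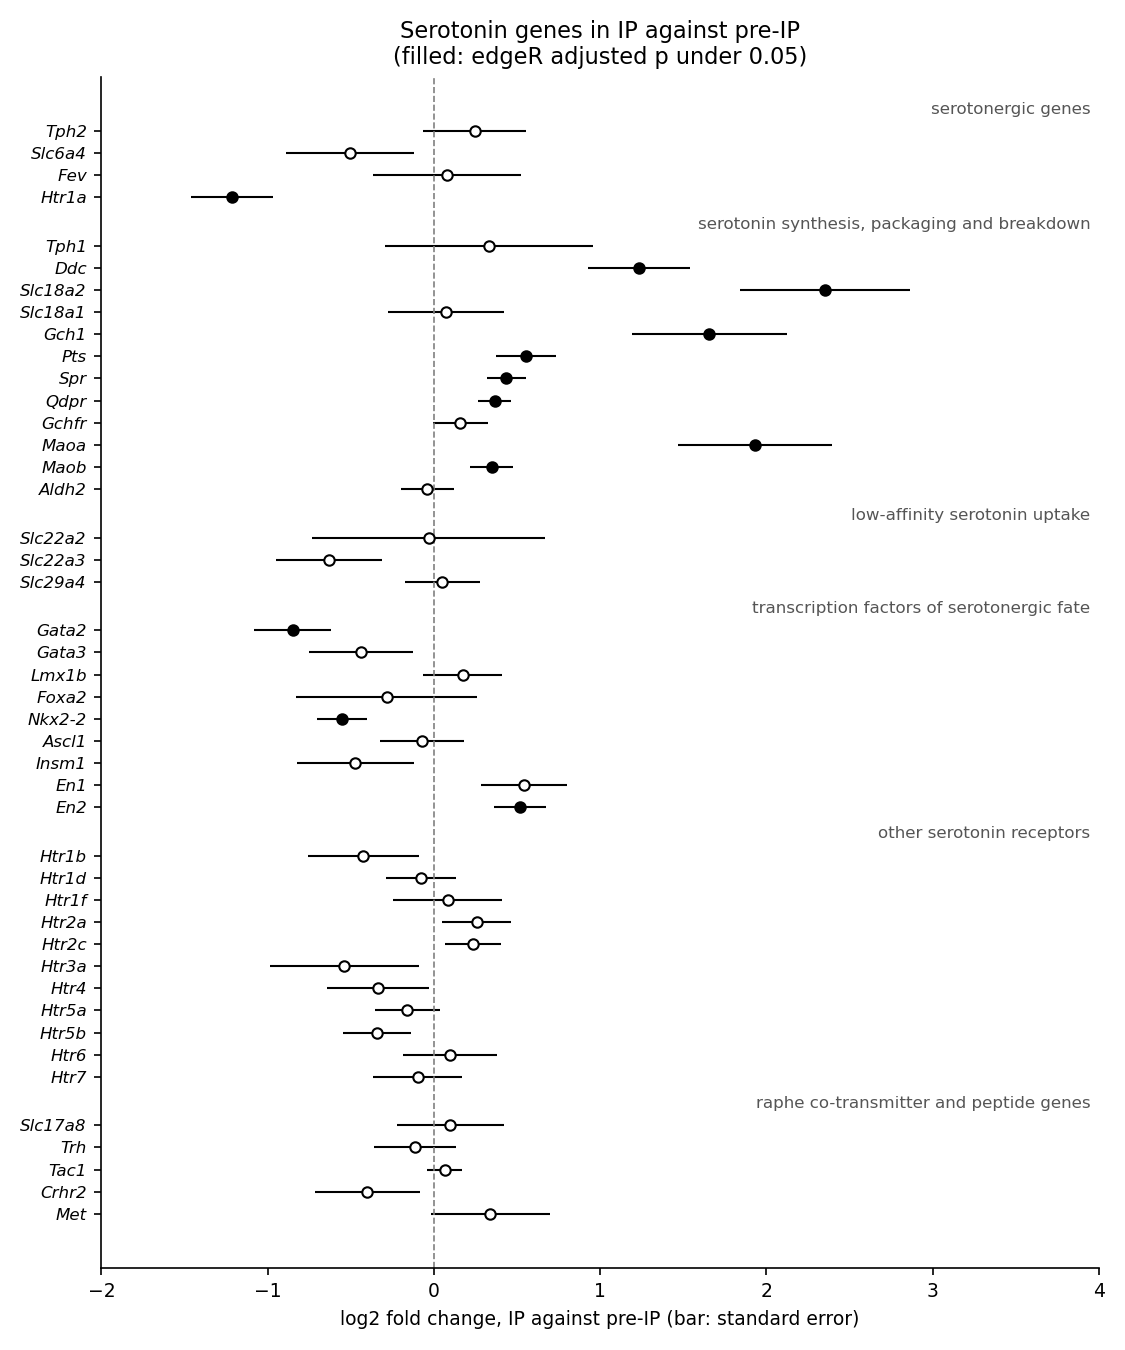
Log2 fold change in IP against pre-IP (x axis, with standard error) for the 4 members and the 40 tested genes of 5 serotonin lists, over all 14 libraries. Filled points have an edgeR adjusted p under 0.05. Htr1a is the lowest filled point at -1.21 and Slc18a2 the highest at 2.35, and no other serotonin receptor is filled.

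Markers of cells that do not carry the tag were set beside these changes. Over all genes tested, 14.7% were lower and 16.3% higher by edgeR, and 41.6% had an unadjusted p under 0.05. DESeq2 called 35.3% and the edgeR fit blocked by animal 32.6%. Beside these shares, 1 call in a list of 4 or 5 markers says little about a cell type. By edgeR, oligodendrocyte markers were lower in IP against pre-IP for 2 of 5 genes, microglial markers for 3 of 5, astrocyte markers for 1 of 5, dopaminergic markers for 1 of 4 and glutamatergic markers for 1 of 2, and no other marker of these lists passed. DESeq2 called 3 oligodendrocyte and 2 astrocyte markers, and also the other glutamatergic marker, Slc17a6, which was higher (0.39 on the log2 scale by edgeR, where its adjusted p was 0.0665). Of 4 cholinergic markers 1 rose, and of 4 GABAergic and glycinergic, 4 cerebellar and 5 choroid plexus and pituitary markers 0 passed in either direction by edgeR, by DESeq2 or at an unadjusted p under 0.05. In the edgeR fit blocked by animal, 4 of 5 oligodendrocyte and 2 of 5 astrocyte markers were lower, as were the cholinergic Slc18a3 (adjusted p 0.00884) and the glycinergic Slc6a5 (adjusted p 0.0162), and the pituitary Pomc was higher (adjusted p 0.0476). Among the 9 lists of other untagged cells the median log2 fold change ran from -0.57 (microglia) to -0.05 (choroid plexus and pituitary), and the 3 serotonergic markers had a median of 0.08. No marker of these lists was lower than Slc17a7 at -0.84, and Htr1a lies below that. The part of such cells in the fall of Htr1a was not tested.

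Tau and EYFP animals were next compared within the IP. All 4 members had negative log2 fold changes and 0 passed: Tph2 had -0.85 (SE 0.402, edgeR adjusted p 0.437), Slc6a4 -0.75 (SE 0.555, adjusted p 0.612), Htr1a -0.53 (SE 0.402, adjusted p 0.623) and Fev -0.16 (SE 0.738, adjusted p 0.951). None passed with DESeq2 or at an unadjusted p under 0.05, where the lowest was 0.0621 for Tph2. Of the 19472 genes tested, 0.0% passed by edgeR, 12% had an unadjusted p under 0.05 and 1.76% passed with DESeq2. The median of the members was -0.64, beside -0.08 over all genes tested, and the groups overlapped for all 4 members, while they did not for 15.6% of genes.

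These differences rest in part on single animals. In the IP, the mean of Tph2 was 28.1 ± 11.4 CPM over tau libraries (SD, n = 4) and 53.2 ± 31.7 CPM over EYFP libraries (SD, n = 3), and without animal K its log2 fold change was -0.22. Without K, that of Slc6a4 was -0.31, that of Htr1a -0.22 and that of Fev 0.24. Without animal M, Slc6a4 had -1.28 and Fev -1.04. With the library-number range as a covariate, Tph2 had -0.92 (edgeR adjusted p 0.199) and Slc6a4 -1.14 (adjusted p 0.222). In that fit Fev had -0.94 (edgeR adjusted p 0.41) and Htr1a -0.75 (adjusted p 0.25).

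Within the tau IP libraries, the serotonergic markers ran opposite to the noradrenergic ones. The summed level of Tph2, Slc6a4 and Fev was 18.4 CPM in B, 32.8 in C, 47.1 in L and 70.1 in M, while noradrenergic markers summed to 4459 CPM in B, 2594 in C, 2097 in L and 505.5 in M. The EYFP IP libraries had 57.6 CPM in H, 46.6 in I and 124.4 in K for the serotonergic markers, and 217, 221.3 and 254.2 CPM for the noradrenergic markers. Oligodendrocyte markers followed the serotonergic order in tau IP, with 3073 CPM in B, 5362 in C, 6053 in L and 9363 in M. In the EYFP IP they had 7880 CPM in H, 8390 in I and 11970 in K. Summed cholinergic, dopaminergic and glutamatergic markers followed that order in tau IP too. Summed astrocyte, microglial, GABAergic and glycinergic, cerebellar, and choroid plexus and pituitary markers did not. In the homogenates of the tau animals, the serotonergic markers summed to 41.98 CPM in B, 46.46 in C, 46.16 in L and 71.72 in M. The IP sums of L and M were thus near those of their homogenates, and those of B and C were lower. B and C are in the lower range of library numbers and L and M in the higher, so the order follows that range too. The part of homogenate level and of library-number range in the order was not tested. With 4 libraries the relation of serotonergic to noradrenergic markers was not tested. All tau IP libraries lie above the EYFP ones in noradrenergic level, so no pooled correlation is given. Animal M, at 505.5 CPM, is nearer the EYFP libraries than the other tau libraries.

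**Figure D4:**
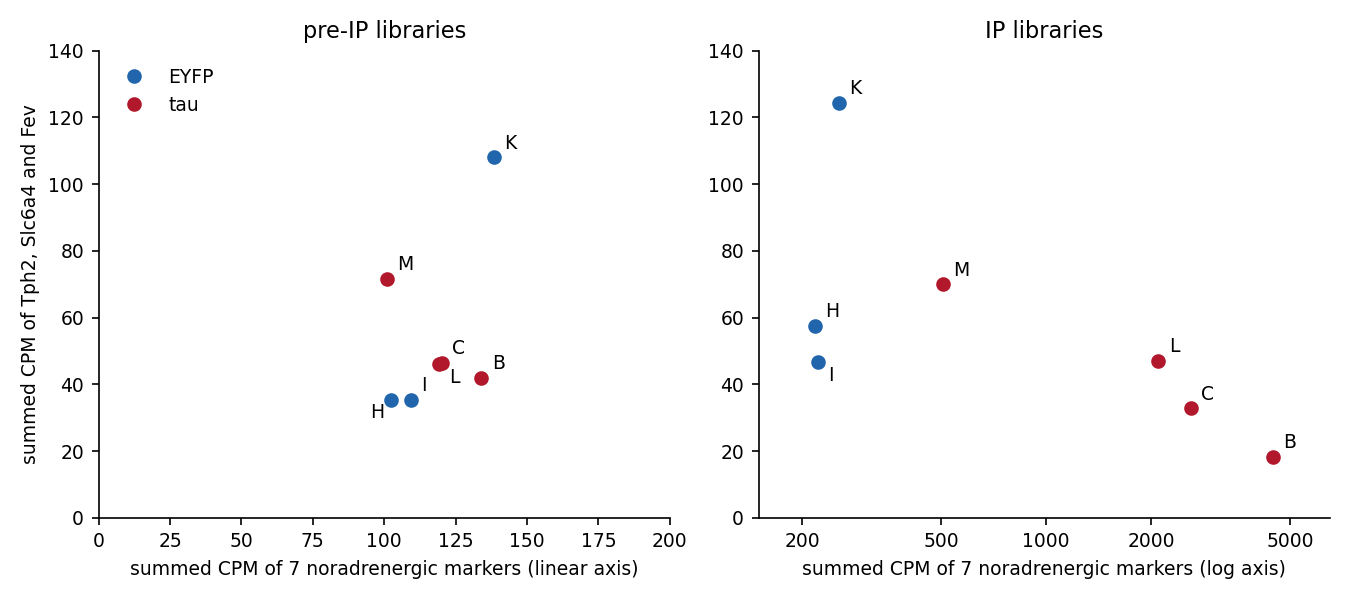
Summed CPM of Tph2, Slc6a4 and Fev (y axis, linear) against summed CPM of 7 noradrenergic markers (x axis, linear for pre-IP and logarithmic for IP), with 1 point per library and the animal's letter. In the IP the tau libraries run from 70.1 CPM in M down to 18.4 CPM in B as noradrenergic markers go from 505.5 to 4459 CPM, and in pre-IP animals K and M stand above the other 5.

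Markers of other untagged cells also had negative values in tau against EYFP IP. All 5 oligodendrocyte, all 5 microglial, all 5 astrocyte, all 4 dopaminergic, all 4 cholinergic, all 4 GABAergic and glycinergic and both glutamatergic markers had negative log2 fold changes, with list medians from -0.72 (dopaminergic) to -0.45 (cholinergic), and none passed by edgeR or DESeq2. Cerebellar markers were negative for 3 of 4 and choroid plexus and pituitary markers for 2 of 5. At an edgeR unadjusted p under 0.05, 3 of 5 microglial, 2 of 5 astrocyte, 2 of 4 dopaminergic and both glutamatergic markers were lower. So were 1 of 4 cholinergic and 1 of 4 GABAergic and glycinergic markers, and 0 oligodendrocyte, cerebellar or choroid plexus and pituitary markers. Of all genes tested, 12% reached it in either direction. The 7 noradrenergic markers were all positive, from 1.41 to 4.36. None passed by edgeR, while DESeq2 called 7 of 7, beside 1.76% of all genes. Summed oligodendrocyte markers had 3073 to 9363 CPM in tau IP and 7880 to 11970 CPM in EYFP IP libraries, and all 5 were detected in each. Summed microglial markers had 71.4 to 129.2 CPM and 136.9 to 166.5 CPM. The part of these in the values of the serotonergic genes was not tested.

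Among the other serotonin genes, 0 of 41 tested passed by edgeR in tau against EYFP IP. At an unadjusted p under 0.05, 8 were higher and 4 lower, beside 12% of all genes tested in either direction. DESeq2 called 5, namely Ddc, Gch1, Maoa, Pts and Slc18a2, beside 1.76% of all genes. All 5 were higher in tau, and all 5 are used by noradrenergic neurons too. The mean of Slc18a2 was 277 ± 138 CPM over tau IP libraries (SD, n = 4), beside 43.4 ± 11.8 CPM over EYFP IP libraries (SD, n = 3).

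In the homogenates the members did not separate the treatments. The log2 fold change in tau against EYFP pre-IP was -0.24 for Tph2 (SE 0.366), -0.13 for Slc6a4 (SE 0.407), -0.56 for Fev (SE 0.403) and -0.07 for Htr1a (SE 0.217). The edgeR adjusted p was 1.0 for all 4, and their groups overlapped, while 3.12% of genes had groups that did not. None passed with DESeq2 or at an unadjusted p under 0.05, and of 19197 genes tested 0.0% passed by edgeR and by DESeq2, with 2.84% at an unadjusted p under 0.05. Without animal K, all 4 values turned positive. The log2 fold change was then 0.56 for Tph2, 0.75 for Slc6a4, 0.20 for Fev and 0.04 for Htr1a. That of Htr1a also turned without B (0.053) and without C (0.002). Of the 40 other serotonin genes tested, 0 passed by either tool and 1 had an unadjusted p under 0.05.

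Whether IP over pre-IP differed between treatments was tested as an interaction over all 14 libraries. It was -0.60 for Tph2 (SE 0.624), -0.62 for Slc6a4 (SE 0.779), -0.46 for Htr1a (SE 0.487) and 0.40 for Fev (SE 0.920), with edgeR adjusted p-values from 0.912 to 0.963. Leaving out 1 animal moved Slc6a4 from -0.37 (without H) to -1.07 (without K) and Htr1a from -0.26 (without K) to -0.75 (without L), and without K and M they had -1.32 and -0.11. By edgeR 0 of the 4 members and 0.0% of 20495 genes passed. At an unadjusted p under 0.05 there were 0 members and 5.97% of genes, and with DESeq2 0 members and 0.254% of genes. These fits did not pair the fractions of an animal. With the animal as a block, the interaction was -0.705 for Tph2, -0.95 for Slc6a4, -0.50 for Htr1a and -0.21 for Fev. The edgeR adjusted p-values of that blocked fit ran from 0.531 to 0.946, and 0.0% of genes passed. Per animal, log2 IP over pre-IP of Tph2 averaged -0.05 ± 0.442 with tau (SD, n = 4) and 0.65 ± 0.222 with EYFP (SD, n = 3). The difference of -0.71 had a two-sided exact permutation p of 0.0857, where 0.0286 is the smallest that the 35 splits allow. Within the lower range of library numbers the difference was -1.10, and within the higher range it was -0.23.

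For Slc6a4 the same difference was -0.96 (two-sided exact permutation p 0.114), and it was -1.67 and -0.04 within the 2 ranges. For Htr1a it was -0.50 (exact permutation p 0.229), with -0.59 and -0.57 within the ranges. For Fev it was -0.21 (exact permutation p 0.886), with -1.34 and 1.10 within the ranges. In the higher range the EYFP arm is animal K alone, whose libraries hold tau construct counts, so these values compare L and M with 1 animal. The noradrenergic markers, for which the pull-down was built, differed by 3.00 (exact permutation p 0.0571).

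The genes whose IP over pre-IP was most like that of the 3 serotonergic markers over the 7 animals were Islr (r = 0.985), Septin8 (0.984), Rpl9-ps6 (0.982), B130021K23Rik (0.982) and Cdkn1c (0.980). Rpl9-ps6 is uncertain because it resembles Rpl9. On the same measure Dbh had r = -0.81, and Htr1a had 0.414. As above, these are descriptions over 7 animals and 14984 genes.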

How the data were processed

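RNA of 14 libraries from 7 mice was used as raw counts per gene, deposited by the authors without normalization. Libraries were made from amplified cDNA of polyA RNA, per the labels' protocols. Per the submitters' processing notes, FastQC, Trim Galore, STAR, featureCounts, GRCm38 and mm10 were used, with no versions given. The use of strand and of reads with several matches is not given in the sources used here. RNA concentrations, RNA integrity numbers and library numbers came from the deposited sheet of samples, per the file headers. The count header holds 2 stray empty cells, so columns were matched to library names without them, and the tau construct counts then equalled those of the sheet in all 14 libraries. Symbols, spans and lengths came from the deposited gene table.

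From these counts, CPM was computed on library totals. Tests used edgeR 4.0.16 in R 4.3.3 (quasi-likelihood F test, filterByExpr, TMM scaling, Benjamini-Hochberg over all genes tested, threshold 0.05). The SE is the log2 fold change over the square root of F. Log2 IP over pre-IP per animal used TMM library sizes and a prior count of 2, with exact sign-flip and permutation tests. Alternatives included DESeq2 1.42.0. The animal letter in the titles pairs the fractions, and same-animal deviations correlated (mean 0.25, 0.15 to 0.40). Libraries of a group are separate animals. Scripts were tested on simulated data.

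The 4 members, the pathway and marker lists, and the settings were chosen with earlier results of these data known. The naming rule took the members, list genes past 0.05 in IP against pre-IP (the 6 largest in each direction), and the 5 genes most like the mean of Tph2, Slc6a4 and Fev among those with a mean of at least 1 CPM in pre-IP. The same was done for IP over pre-IP. Tph1, Gata3, Lmx1b and Slc17a7 were named after their values were seen.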

Additional observations from a re-analysis of the deposited data

How the results depend on the processing

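Htr1a in IP against pre-IP kept its direction and stayed under 0.05 in every setting run. Gene counts moved with the method. In IP against pre-IP, 1218 genes passed in the EYFP animals alone. In tau against EYFP IP, DESeq2 called 342 genes, edgeR with no low-count filter 113, the fit of all 14 libraries 202, the fit without K and M 8, and the fits without 1 animal between 0 and 128 (without M). In pre-IP the counts were 44 without a filter, 1 without K and M and 0 to 1 without 1 animal, and for the interaction 52 with DESeq2, 67 without a filter, 13 without K and M and 0 to 56 without 1 animal (56 without M). No member was among those called in tau against EYFP or in the interaction. The animal as replicate block changed no call of a member. Signs of values that had not passed did turn: in IP against pre-IP, Tph2 was -0.04 in tau animals alone, and Fev was -0.30 without K and M, -0.091 with the library-number range, -0.16 with the replicate block, -0.15 in EYFP animals alone and -0.38 to 0.24 without 1 animal. In pre-IP, without K and M, Tph2 was 0.33, Slc6a4 0.47 and Fev 0.21. The interaction of Fev was -0.85 without K and M, -0.15 with the range, -0.21 with the replicate block and -0.54 to 0.64 without 1 animal. Without 1 animal, tau against EYFP ran in IP from -1.04 to 0.24 for Fev, and in pre-IP from -0.54 to 0.56 for Tph2, -0.45 to 0.75 for Slc6a4, -0.89 to 0.20 for Fev and -0.30 to 0.053 for Htr1a. Per animal, the mean log2 IP over pre-IP ran from -0.78 (without H, exact sign-flip p 0.0312) to -0.37 for Slc6a4 and from -0.45 to 0.017 for Fev, and tau minus EYFP of Fev from -0.80 to 0.13. The r of Slc6a4 and Fev was 0.724 without scaling (exact permutation p 0.0643), against 0.753 (p 0.0498). The causes were not tested. The setting without K and M and the comparisons between members were chosen after seeing the data. Fev had 34 counts in its lowest library, which limits its precision there.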
